A study of Canis lupus familiaris with 36 samples.

Results

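The 8 mature canine miRNAs described here, cfa-miR-1, cfa-miR-133a, cfa-miR-133b, cfa-miR-133c, cfa-miR-206, cfa-miR-208a, cfa-miR-208b and cfa-miR-499, are the muscle-restricted miRNAs known as myomiRs, written below without the species prefix. They were selected by name among the 453 mature miRNAs of the count table, and where a name had several entries the one with the highest total was taken. All 8 were found and all 8 passed the filter on low counts, among 225 mature miRNAs that did. They were measured by small RNA sequencing of formalin-fixed, paraffin-embedded (FFPE) heart tissue from dogs, in 6 libraries of cardiac hemangiosarcoma (HSA), a malignant tumor of endothelial cells, and in 6 cardiac control libraries, titled healthy heart, from dogs taken to necropsy after death without a tumor. The study states that dogs with HSA could have had chemotherapy, that they were older than the controls, and that whole tumor tissue was used. The age of each dog and the heart chamber of each block were not used here. The splenic libraries of the series were not analysed here.

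In all 12 libraries the label fields disagree, with the treatment field giving HSA where the title says healthy heart and control where it says cancer heart. The division into 6 and 6 is the same by either field. The title was followed, and a reading by the treatment field would turn every direction given below. The kit named for library preparation also differs between the labels and the methods.

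MyomiRs are made in striated muscle cells, where they repress genes of other lineages and tune contraction, growth and the stress response of the muscle. MiR-1 and miR-133a are produced from shared transcripts in heart and skeletal muscle and are among the most abundant miRNAs of the heart. MiR-206 and miR-133b form a second pair of the same make, best known from skeletal muscle, and miR-206 carries the same seed as miR-1. MiR-208a, miR-208b and miR-499 lie in introns of myosin heavy chain genes and are made together with their hosts. In the RefSeq gene table of the assembly UU_Cfam_GSD_1.0, which differs from the CanFam3.1 build of the files, all 9 precursors were matched by name. There the genes MIR1-2 and MIR133A lay next to each other within MIB1, and the nearest miRNA gene to MIR1-1 was MIR133C. MIR206 and MIR133B were each other's nearest miRNA gene. MIR208A lay within MYH6, the alpha-myosin gene, MIR208B within MYH7, the beta-myosin gene, and MIR499 within MYH7B.

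The names miR-133a and miR-133c carry nearly the same counts in these files and cannot be told apart. Their counts differed by 0 in 9 of the 12 libraries and by at most 6 of 606848 in the others, so they are given as one value, miR-133a/c, which leaves 7 distinct signals. The pairs miR-133a/c and miR-133b, miR-1 and miR-206, and miR-208a and miR-208b also have closely similar sequences. Reads between the members of such a pair may have been counted on either, which makes the less abundant partner the more uncertain one.

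After merging of repeated entries, the libraries held 6999830 to 11668822 counts in control and 2018959 to 8999025 in HSA. All levels below are CPM, counts scaled to a fixed library total, after scaling by TMM, edgeR's factor for differences in composition, unless a sentence gives another scale. The TMM factors were 0.769 to 0.889 in control and 0.948 to 1.17 in 5 HSA libraries, and HSA replicate 2 stood apart with 1.96. In HSA replicate 3, miR-122, the main liver miRNA, reached 204213 CPM, against at most 477 CPM in the other HSA libraries and at most 43.9 CPM in control. HSA replicate 5 had the highest sum of 7 epithelial miRNAs, 3282 CPM, against 43.1 to 544 in the other HSA libraries and 7.74 to 20.8 in control. Sequencing cannot tell fewer muscle cells from less of a miRNA per muscle cell in such whole-tissue samples. P-values set the difference between the groups against the variation between these libraries, each of which is labelled as a separate sample.

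As a check of the labelled tissue, the myomiRs made up 14.5% to 21.1% of all miRNA counts in the 6 control libraries, with a median of 17.4%. This share counts miR-133a/c once and takes 1 entry for each mature miRNA in both its parts, and it does not depend on TMM. In HSA the shares were 19.1% in replicate 1, 3.40% in replicate 2, 0.0892% in replicate 3, 3.85% in replicate 4, 9.56% in replicate 5 and 20.7% in replicate 6. Thus 2 HSA libraries lay within the control range and 4 below it. In replicate 3, labelled as heart, 2209 of 2476353 counts were on myomiRs, with a 95% Wilson interval of 0.0856% to 0.0930%, which covers counting error only. The mean was 9.45% ± 8.67 (SD, n = 6) in HSA and 17.7% ± 2.47 (SD, n = 6) in control.

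**Figure D1:**
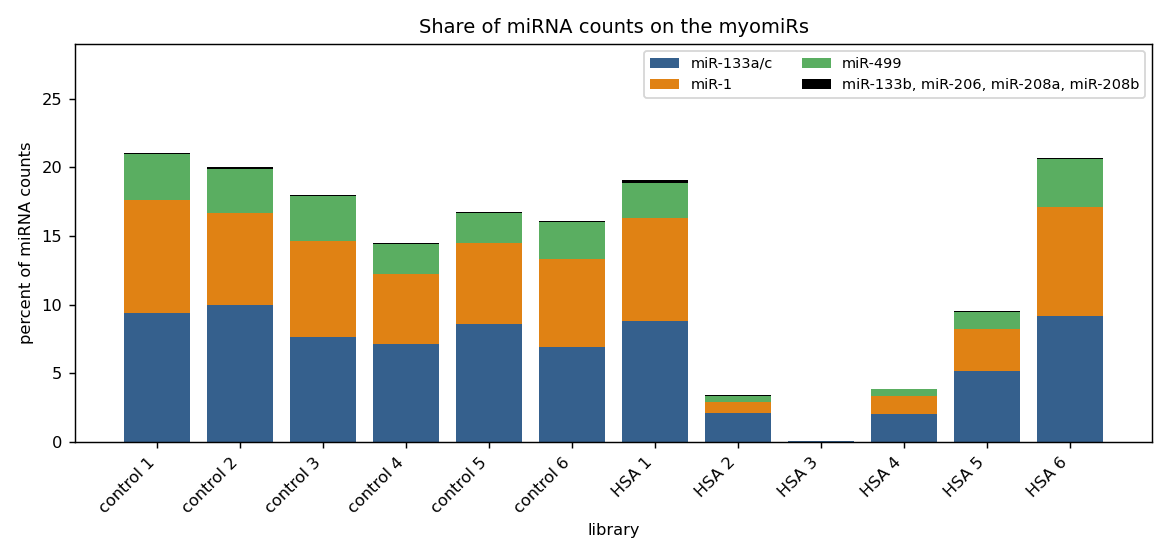
Percent of miRNA counts on the myomiRs (y axis) in each of the 12 cardiac libraries (x axis), stacked by miRNA. HSA replicates 1 and 6 reach 19.1% and 20.7%, inside the control range of 14.5% to 21.1%, and the bar of HSA replicate 3, at 0.0892%, is barely visible.

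None of the 8 myomiRs was called different between cardiac HSA and cardiac control in edgeR's quasi-likelihood test. A call needed an adjusted p below 0.01 together with a log2 fold change of 1 or more in either direction. Of all 225 miRNAs tested, 25.8% were called, 18.7% higher and 7.11% lower in HSA. At an unadjusted p under 0.05, 1 of the 8 passed, miR-208b, against 120 of all 225. DESeq2 and limma also called 0 of the 8, each with 1 at an unadjusted p under 0.05. The log2 fold change was below 0 for 7 of the 8 names, with a median of -1.24, whereas it was below 0 for 36.9% of all tested miRNAs, whose median was 0.34. It was -1 or lower for 5 of the 8 names and for 13.8% of all tested miRNAs. Both counts and the median take miR-133a and miR-133c as separate names, though they are the same signal. The myomiRs spread widely within HSA. The SD of log2 CPM over the 6 HSA libraries was 3.15 for miR-499, 3.01 for miR-133a/c and 2.80 for miR-1, the ranks 4, 6 and 9 of 225, with a median of 0.74 over all tested miRNAs. In control the same miRNAs had an SD of 0.30, 0.23 and 0.24, close to the median of 0.30 over all tested miRNAs. The SD of miR-206 in HSA was 1.54, rank 50.

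The most abundant signal was miR-133a/c, which restrains the growth of heart muscle cells. In control its level was 57434 CPM at the lowest, 76433 at the median and 84579 at the highest. In HSA it was 254 CPM at the lowest, 23526 at the median and 71412 at the highest. Of the 6 HSA libraries, 4 lay below every control library, and replicates 1 and 6 lay among the controls. In edgeR, HSA over control was -1.24 on the log2 scale, with a standard error of 0.81 and an adjusted p of 0.218.

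MiR-1, which promotes muscle differentiation, showed the same arrangement of libraries. Its levels were 44698, 56561 and 72997 CPM at the lowest, median and highest in control, and 357, 14178 and 61857 CPM in HSA. The same 4 HSA libraries, replicates 2 to 5, lay under the control range. In edgeR the log2 fold change was -1.27 ± 0.83 (standard error), with an adjusted p of 0.218.

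MiR-499, encoded within the slow myosin gene MYH7B, had 18756, 24763 and 30700 CPM at the lowest, median and highest in control. In HSA these values were 65.3, 5736 and 27169 CPM. Here 5 of the 6 HSA libraries lay below every control library, since replicate 1, with 17579 CPM, was also below the lowest control. The place of replicate 1 depended on TMM. As a share of miRNA counts, without TMM, miR-499 was 2.58% in HSA replicate 1 and 2.14% to 3.32% in control. In edgeR, HSA over control was -1.36 ± 0.87 (standard error) on the log2 scale, at an adjusted p of 0.216.

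MiR-133b and miR-206, the second cluster, were present at much lower counts. MiR-133b had 409, 551 and 741 CPM at the lowest, median and highest in control and 6.22, 319.5 and 1106 CPM in HSA. Its groups interleaved in both directions, with 3 HSA libraries below every control and 2, replicates 1 and 6, above every control. Its log2 fold change in edgeR was -0.33 ± 0.77 (standard error, adjusted p = 0.734), and it turned positive, to 0.10, when counts were scaled by library size only. MiR-206, which acts in muscle regeneration, had 81.7, 87.2 and 145 CPM in control and 4.66, 48.4 and 90.1 CPM in HSA. In 4 HSA libraries, replicates 2 to 5, it lay below every control on the TMM scale. Before TMM only replicates 3 and 4 did. Replicates 2 and 5 then lay among the controls, with 334 of 4605116 and 319 of 4575205 counts, against 563 of 8950340 in control replicate 5. For miR-206 edgeR gave -0.97 ± 0.51 (standard error, adjusted p = 0.136) on the log2 scale.

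MiR-208b, made with the slow beta-myosin, was the single myomiR without overlap between the groups on the TMM scale. It had 85.3, 119.7 and 199 CPM at the lowest, median and highest in control. In HSA it had 67.7 CPM in replicate 1, 19.3 in replicate 2, 0 in replicate 3, 6.63 in replicate 4, 30.0 in replicate 5 and 68.2 in replicate 6. On this scale all 6 HSA libraries thus lay below every control library, also the 2 in which miR-1 and miR-133a/c were at control level. Before TMM the margin was narrow, with 151 of 2018959 counts in HSA replicate 1 and 676 of 8950340 in control replicate 5. Of all tested miRNAs, 10.7% had all HSA libraries below all controls, and a single case among 8 myomiRs is near that share. Another 15.1% had all of them above, which was the case for 0 of the 8 myomiRs. In edgeR miR-208b was at -2.0 ± 0.84 (standard error, unadjusted p = 0.0348, adjusted p = 0.0713) on the log2 scale, which missed the threshold. The adjusted p was 0.0387 in DESeq2 and 0.0429 in limma on the deposited CPM, both also above 0.01.

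MiR-208a, made with alpha-myosin, the faster of the cardiac myosins, had the lowest counts of the 8, from 11 to 80 counts and from 1.77 to 8.61 CPM in control. In HSA it had 56 counts in replicate 1, 27 in replicate 2, and 0 in replicates 3, 4, 5 and 6. In replicate 1 this was 25.1 CPM, 641% of the control mean, and in replicate 2 it was 2.99 CPM, within the control range. Taking 3 counts as the limit, a count of 0 allows from 0.352 CPM in replicate 6 to 0.933 CPM in replicate 3, which is below the lowest control in all 4 libraries. In edgeR the group difference was 0.16 ± 1.34 (standard error, adjusted p = 0.931) on the log2 scale, a value that rested on HSA replicate 1, as it was -2.64 (adjusted p = 0.0844) without that library. DESeq2 gave miR-208a no adjusted p. Its controls brought it past the filter, since 4 of the 6 HSA libraries had no count.

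**Figure D2:**
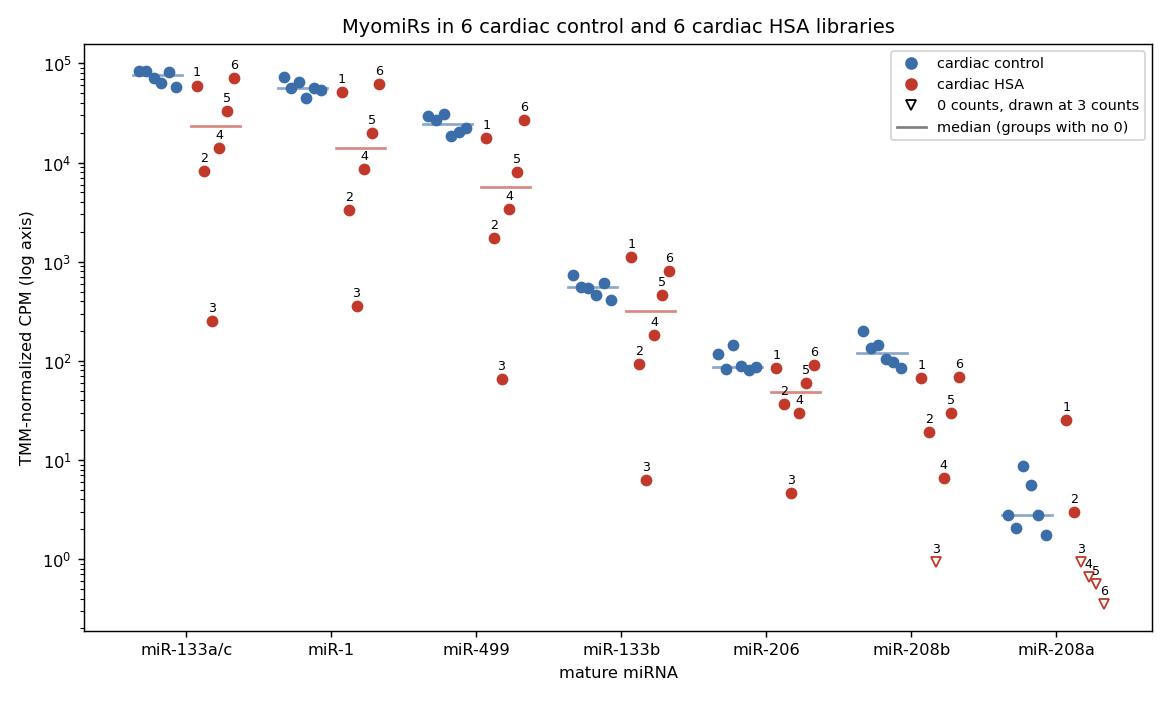
TMM-normalized CPM on a log axis (y) of the 7 distinct myomiR signals (x) in cardiac control libraries (blue) and cardiac HSA libraries (red, with the replicate number). Lines are group medians and open triangles are counts of 0 drawn at the level of 3 counts. HSA replicates 1 and 6 sit near the controls and replicate 3 lowest for 6 of the 7 signals, while miR-208b is below 85.3 CPM, the lowest control, in every HSA library.

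Library by library, all 7 signals lay below the control mean on the TMM scale in HSA replicates 2, 3, 4 and 5, by differing amounts. Without TMM, miR-133b in replicate 5 and miR-208a in replicate 2 lay above the control mean. In replicates 1 and 6 some signals lay above that mean and some below. Leaving out miR-208a, the 6 signals in replicate 6 lay between log2 values of -0.90 and 0.53 from the control mean, and those in replicate 1 between -0.92 and 1.00. Single control libraries lay between -0.58 and 0.64. In both of these HSA libraries miR-208b was the lowest signal and miR-133b the highest. In replicate 5 the signals lay between -2.09 and -0.27, in replicate 4 between -4.27 and -1.61, and in replicate 2 between -4.14 and -1.44. In replicate 3 they lay between -8.57, for miR-499, and -4.42, for miR-206, where miR-208b had no count. The level of miR-1 was 106% of the control mean in replicate 6, 88.2% in replicate 1, 33.9% in replicate 5, 14.8% in replicate 4, 5.66% in replicate 2 and 0.612% in replicate 3. On the TMM scale the order of the HSA libraries by miR-133a/c was the same. As a share of miRNA counts, without TMM, miR-133a/c was 2.09% in replicate 2 and 2.04% in replicate 4, the reverse order. MiR-206 was at 36.9% of the control mean in replicate 2, a value that depended on the TMM factor of 1.96, and at 4.66% in replicate 3.

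**Figure D3:**
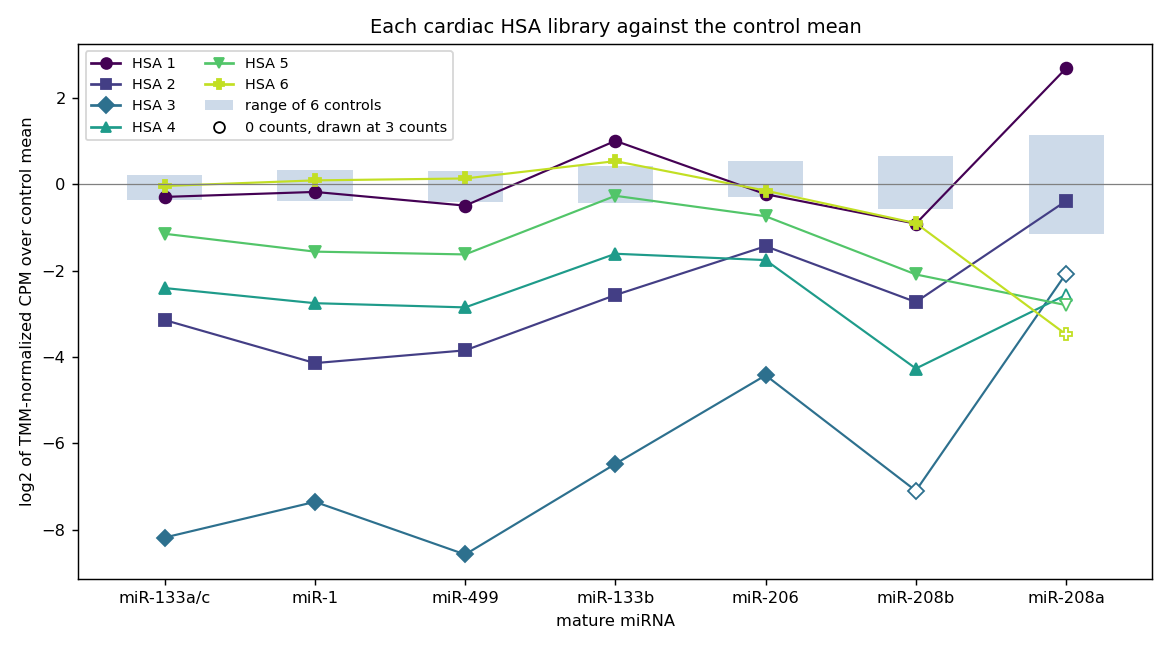
Log2 of the TMM-normalized CPM over the control mean (y axis) for 7 myomiR signals (x axis). Each line joins the values of 1 HSA library, the bars span the 6 control libraries, and open symbols are counts of 0 drawn at 3 counts. Replicates 1 and 6 run between -0.92 and 1.00 except at miR-208a, and replicate 3 runs at -4.42 or lower for every signal except miR-208a.

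Markers of other cells also differed between the HSA libraries, not all in the order of the myomiRs, and their part in the myomiR levels was not tested. The 4 leukocyte miRNAs summed to 578 to 3552 CPM in HSA and 289 to 424 CPM in control, and all 4 were called higher. Their sums were 578 and 868 CPM in HSA replicates 1 and 6, whose summed myomiR share was within the control range. They were 803, 2176, 3439 and 3552 CPM in replicates 5, 3, 4 and 2. MiR-122 was highest in the library with the fewest myomiR counts, replicate 3. Of the 7 epithelial miRNAs, 3 were tested and 2 called higher, miR-200c and miR-203, and between 2 and 4 of the 7 were at 0 in each control library. The erythroid pair miR-451 and miR-144 summed to 2154 to 34145 CPM in HSA and 4955 to 12321 in control, with miR-144 called higher. The smooth muscle pair miR-143 and miR-145 summed to 27272 to 125968 CPM in HSA and 59408 to 89750 in control, and neither was called, with log2 fold changes of -0.04 and 0.22. Without HSA replicates 3 and 5, the libraries with the highest liver and epithelial levels, still 0 of the 8 myomiRs were called, and the log2 fold changes were -0.89 for miR-1, -0.94 for miR-133a/c, -0.99 for miR-499 and -1.66 for miR-208b (adjusted p = 0.0418 for the last, from edgeR).

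The values also depended on how libraries were scaled. With TMM computed without the myomiRs, the log2 fold changes of miR-1, miR-133a/c and miR-499 were -1.33, -1.31 and -1.42, and with counts scaled by the total of the other miRNAs they were -0.91, -0.87 and -1.01. With counts scaled by library size only they were -0.89, -0.82 and -0.99, while the median of all tested miRNAs moved from 0.34 to 0.97. Relative to that median all 3 lay lower than with TMM. With limma on the log2 of the deposited CPM plus a pseudocount of 1 they were -2.02, -1.90 and -2.23. MiR-208b stayed between -2.29 and -1.52 over these tools and scalings, and miR-206 between -1.04 and -0.45. MiR-133b and miR-208a had no stable sign, with miR-133b from -0.89 to 0.10 and miR-208a from -0.58 to 0.73.

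**Figure D4:**
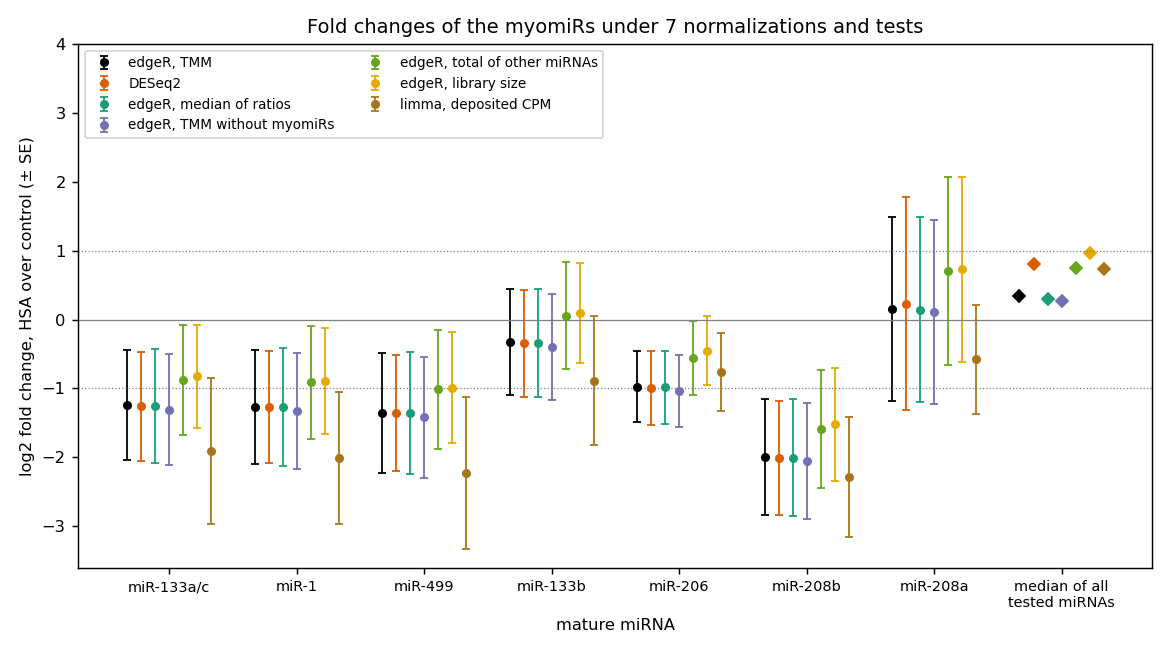
Log2 fold change of HSA over control with its standard error (y axis) for 7 myomiR signals under 7 combinations of tool and scaling (colors), with the median over all tested miRNAs as diamonds at the right. DESeq2's median covers 320 miRNAs and the others 225, and the dotted lines mark a log2 fold change of 1 in either direction. MiR-1, miR-133a/c, miR-499, miR-206 and miR-208b are below 0 under all 7, and the signs of miR-133b and miR-208a change.

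Ratios between myomiRs within a library are free of scaling, and 6 of them were compared by a two-sided exact permutation test over every division of the libraries into 6 and 6, for which the smallest p is 0.00216. None passed an adjusted p of 0.05 over the 6 ratios. The log2 ratio of miR-206 to miR-1 was -7.98 ± 1.36 (SD, n = 6) in HSA and -9.20 ± 0.25 (SD, n = 6) in control, higher by 1.22 (exact permutation p = 0.0390, adjusted p = 0.234). It was above every control in 4 HSA libraries, replicates 2 to 5, and within the control range in replicates 1 and 6. Without HSA replicate 6 the difference was 1.51 (exact permutation, adjusted p = 0.0390), and without HSA replicate 3 it was 0.87 (exact permutation, adjusted p = 0.377). With any 1 library left out it stayed between 0.87 and 1.51, at adjusted p of 0.0390 to 0.558 in the exact permutation test, and with the replicate number as a block the adjusted p was 0.562.

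The log2 ratio of miR-499 to miR-208b, partners in the slow myosin program, was 8.15 ± 0.90 in HSA and 7.64 ± 0.27 in control (exact permutation p = 0.212, adjusted p = 0.636, n = 6 in each group). It was higher than every control in 4 HSA libraries. HSA replicate 2 had the lowest value, 6.48, and without it the difference rose from 0.51 to 0.85 (exact permutation, adjusted p = 0.0390), whereas with all libraries and 3 counts added in place of 0.5 it was 0.06. The log2 ratio of miR-133a/c to miR-1 was 0.45 ± 0.62 in HSA and 0.34 ± 0.22 in control, and that of miR-499 to miR-1 was -1.46 ± 0.52 and -1.24 ± 0.15 (exact permutation p = 0.688 and p = 0.435, n = 6 in each group). For miR-133a/c to miR-1, 3 HSA libraries lay above and 1 below every control, and for miR-499 to miR-1, 1 lay above and 2 below. The ratio of the clustered pair miR-133b and miR-206 did not separate the groups either, at 2.35 ± 1.24 and 2.47 ± 0.37 (exact permutation p = 0.827, n = 6 in each group).

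The 2 myosin-linked miRNAs miR-208a and miR-208b differed in their balance between single HSA libraries. In control, miR-208a made up 1.37% to 5.66% of the counts of both, and the highest upper bound of the exact 95% intervals was 6.99%. In HSA replicate 1 it was 56 of 207 counts, 27.1% (exact 95% interval 21.1% to 33.6%), and in replicate 2 it was 27 of 201, 13.4% (9.04% to 18.9%). In HSA replicate 6 it was 0 of 582, which allows a share of up to 0.515%, below the lowest lower bound of the controls, 0.836%. Replicate 5, with 0 of 160 and an allowed share of up to 1.88%, and replicate 4, with 0 of 30, cannot be told apart from the controls at this depth, and replicate 3 had no count of either. The HSA libraries thus fell on both sides of the controls. Over the groups, the log2 ratio of miR-208b to miR-208a was 4.76 ± 4.04 in HSA and 5.18 ± 0.89 in control (exact permutation p = 0.807, n = 6 in each group), where the value of replicate 3 comes from the 0.5 added to each count alone. Replicates 1 and 6, alike in miR-1, miR-133a/c and miR-208b, stood at opposite ends of this share.

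The share of miR-133b among the counts of miR-133a/c and miR-133b was looked at after its values had been seen, so it is a description without a test. It was 0.656% to 0.876% in the 6 control libraries. In HSA it was 1.81% in replicate 1, 1.11% in replicate 2, 2.39% in replicate 3, 1.29% in replicate 4, 1.36% in replicate 5 and 1.11% in replicate 6. All 6 HSA values were above every control value, also in replicates 1 and 6, whose summed myomiR share was within the control range. How many other pairs of miRNAs separate as fully was not worked out. Among single tested miRNAs on the TMM scale, 10.7% had all HSA libraries below all controls and 15.1% had all of them above. In replicate 3 the share rests on 20 of 837 counts, with an exact 95% interval of 1.47% to 3.67%. As the mature sequences are nearly the same, a shift in read ends or in read assignment and a shift between the miRNAs cannot be told apart in these counts.

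**Figure D5:**
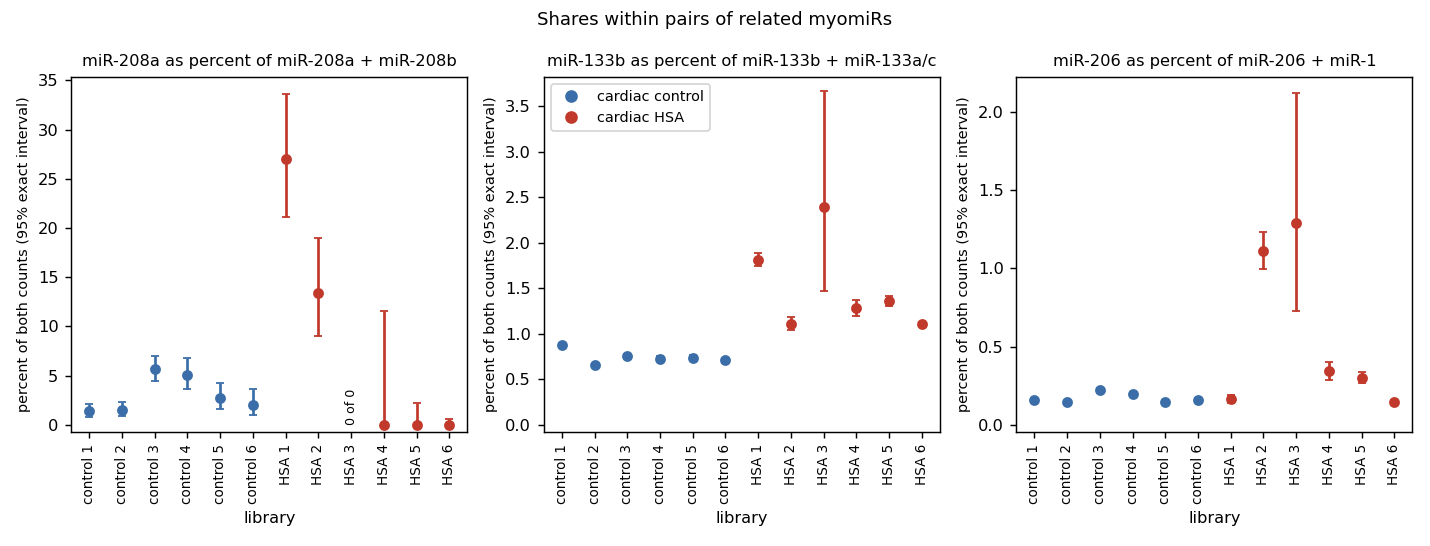
Percent of the counts of 2 related miRNAs that fell on the first of them (y axes), with exact 95% intervals for counting error, in each library (x axes). From left to right, miR-208a with miR-208b, miR-133b with miR-133a/c, and miR-206 with miR-1. In the middle panel all HSA libraries, 1.11% to 2.39%, lie above all controls, at most 0.876%.

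Among 10 other miRNAs that are abundant or active in striated muscle, 3 were called lower in HSA and 0 higher. All 10 log2 fold changes were below 0, with a median of -1.20. Of all tested miRNAs, 7.11% were called lower and 36.9% had a log2 fold change below 0, with a median of 0.34. The list holds miR-30a, miR-30b, miR-30c, miR-30d and miR-30e, which are of the same family and not separate markers. MiR-486-3p, the partner strand of a muscle and erythroid miRNA, had 1637 ± 192 CPM in control and 244 ± 161 in HSA (SD, n = 6 each), and edgeR gave -2.75 ± 0.42 (standard error, adjusted p = 0.000935) on the log2 scale. MiR-30d and miR-30c, of a family abundant in the heart, had log2 fold changes of -1.94 (adjusted p = 0.00461) and -1.19 (adjusted p = 0.00456). MiR-486, miR-30a and miR-378 were not called, at -1.33 (adjusted p = 0.0205), -1.10 (adjusted p = 0.0236) and -1.21 (adjusted p = 0.0465). Nor were miR-30e, at -0.92 (edgeR, adjusted p = 0.0601), and miR-30b, at -0.77 (edgeR, adjusted p = 0.132). MiR-490, within a gene of the heart's muscarinic receptor, had -1.25 (adjusted p = 0.131) and miR-22 -0.30 (adjusted p = 0.377). The log2 fold changes of the called miR-30c and of miR-1 were alike in size, but the standard error was 0.27 for miR-30c and 0.83 for miR-1.

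Similarity of profiles was measured as the mean absolute difference of log2 CPM over the 12 libraries, each miRNA being centred on its own mean. The profile nearest to miR-1 was that of miR-499, at 0.24, followed by miR-133a/c at 0.33, miR-208b at 0.55 and miR-133b at 0.57, against a median of 1.89 over all tested miRNAs. MiR-206 was at 0.87 from miR-1 and miR-208a at 1.76. Outside the myomiRs, the nearest to miR-1 were miR-486-3p at 0.81, miR-95 at 0.83 and miR-1249 at 0.85. The nearest to miR-499 were miR-95 at 0.94, miR-490 at 0.95 and miR-30d at 0.97, against a median of 2.00 over all tested miRNAs. MiR-206 had its nearest profiles outside the group, with miR-1468 at 0.39, miR-30b at 0.41 and miR-30e at 0.42. Its nearest myomiR was its cluster partner miR-133b at 0.63, rank 21 among the tested miRNAs. The median for miR-206 over all tested miRNAs was 1.06. The measure depends on how widely a miRNA varies, so distances from miR-206 and from miR-1 are not on equal terms.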

How the data were processed

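Small RNA was sequenced from FFPE heart tissue. The authors trimmed adapters with Cutadapt, aligned reads to CanFam3.1 with Bowtie, counted them on miRBase miRNAs with HTSeq and deposited raw counts for 517 entries, each a mature miRNA and a precursor. CPM values that the authors deposited beside them were recomputed from the counts to within 0.00499 CPM, so no composition factor is in them. No column was left out. Of repeated entries with the same name and counts, 43 were dropped and 474 remained.

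The 12 libraries were grouped by title. Counts were compared in R 4.3.3 with edgeR 4.0.16 (TMM, filterByExpr, quasi-likelihood F test, Benjamini-Hochberg over 244 entries for 225 miRNAs). Calls used the study's thresholds, an adjusted p below 0.01 with a log2 fold change of 1 or more in either direction. Standard errors were derived from the fold change and its F statistic. DESeq2 1.42.0, the tool the study used on its cardiac samples in another version, and limma 3.58.1 were alternatives, with other scalings, filters, a robust dispersion, a single entry per miRNA, removal of miR-133c, a replicate term and each library left out. Ratios had 0.5 added to each count. SDs of log2 CPM had 0.5 CPM added. Intervals are at 95%, and 3 counts were taken as the limit of a 0. Intervals and limits cover counting error only. Scripts were tested on simulated data. Python 3.11.15 and scipy 1.17.1 were used for permutation tests.

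The members, the other lists and the tests were chosen with earlier results of these data known. Named miRNAs are the 8 members, those on the lists, and the 3 other miRNAs nearest in profile to miR-1, miR-206 and miR-499. Leaving out HSA replicates 3 and 5 together, and DESeq2 with its outlier rule switched off, were added after the data were seen.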

Additional observations from a re-analysis of the deposited data

Results flagged for a closer look

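MiR-208a in cardiac HSA replicate 1, at 25.1 CPM, lay far from the other 5 HSA libraries, of which the next had 2.99 CPM. The gap was 0.881 of the whole range of the group. It was the single value of 28 groups of 6 libraries that stood apart in this way. The groups were the 7 signals, the 6 ratios and the summed share in each condition, and chance flags about 1 group in 20. A single flag among 28 is no more than that rate gives. The rate is for normal values, whereas 4 of these 6 HSA values were 0. In the same library miR-208b, with 67.7 CPM, was below every control library.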

How the results depend on the processing

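No myomiR was called in either direction under any setting that was run, including each library left out (0 to 0 called), the replicate number as a block, and the removal of HSA replicates 3 and 5. Over all miRNAs, 42 were called higher and 16 lower. Scaling by library size only gave 68 higher and 5 lower. Scaling by the total of the other miRNAs gave 5 lower, limma on the deposited CPM 5, and the removal of HSA replicates 3 and 5 gave 8. Leaving out 1 library at a time gave 19 to 45 higher and 5 to 20 lower, with 19 higher without control replicate 1, 4 or 5, and between 21 and 25 without control replicate 2 or 6 or HSA replicate 4. Lower calls were 5 to 8 without control replicate 5, 1, 4 or 2, and 9 without HSA replicate 2. The cause was not tested.

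Replicate numbers name dogs and do not pair them. Same-numbered libraries had correlations of deviations from -0.29 to 0.06, and with the replicate block 3 miRNAs were called higher and 3 lower. MiR-1 then had a log2 fold change of -2.31 (adjusted p = 0.131 from edgeR) and miR-208a one of -2.99, against 0.16 without the block.

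MiR-133b turned positive with library size only, at 0.10, and with the total of the other miRNAs, at 0.0536. MiR-208a was -0.58 with limma and between -2.64 and 0.56 with 1 library left out. With 1 library left out, the differences of the log2 ratios ran from -0.0627 to 0.30 for miR-133a/c to miR-1, from -0.39 to 0.27 for miR-133b to miR-206 and from -1.51 to 0.53 for miR-208b to miR-208a. Without HSA replicates 3 and 5 that of miR-133b to miR-206 was 0.22. The adjusted p of miR-208b ran from 0.0213, without HSA replicate 3, to 0.144, without HSA replicate 2.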

Other observations

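Between the 2 least abundant of the well-measured myomiRs, the order of levels differed by library. MiR-206 was above miR-208b in all 6 HSA libraries and in 2 of the 6 control libraries. MiR-133a/c was above miR-1 in 11 libraries and below it in HSA replicate 3, which had the fewest myomiR counts.

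MiR-126, the miRNA typical of endothelial cells, had a log2 fold change of -0.45 (adjusted p = 0.328 from edgeR) in these tumors of endothelial origin, with 943 to 4291 CPM in HSA and 2369 to 4209 CPM in control. Its highest HSA levels, 4291 and 3716 CPM, were in replicates 1 and 6, whose summed myomiR share was within the control range. In the other 4 HSA libraries it had 943 to 1545 CPM, below every control library on the TMM scale. The highest of these values, 1545 CPM in replicate 2, depended on the TMM factor of 1.96. Without TMM, miR-126 in replicate 2 lay among the controls.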
